A study of Mus musculus with 38 samples.

Results

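Left ventricles from mouse hearts in the HFpEF state (heart failure in which the ejection fraction is preserved) that had been treated with TYA-018, an inhibitor of histone deacetylase 6 (HDAC6), were compared with those of non-failing mice, to see what stays changed and what is at the healthy level under the drug. The members were the bulk RNA sequencing libraries titled HFpEF+TYA-018 (11 libraries) and non_failing (8 libraries), that is 19 of the 38 libraries of the series, 1 per mouse, and 13765 genes were expressed enough to be tested. All mice were wild-type C57BL6. The non_failing mice had standard chow and vehicle. The HFpEF+TYA-018 mice carried the HFD/L-NAME model, a high-fat diet with the nitric oxide synthase inhibitor L-NAME, and received TYA-018. A group of 8 libraries with the same model and vehicle (HFpEF+Veh) served only to tell which differences from non_failing were also there without the drug. A value given as with vehicle is always that of HFpEF+Veh, and since the non_failing mice had vehicle too, what the labels set apart is the model. The 11 libraries of the remaining group (HFpEF+SGLT2i, the model with an SGLT2 inhibitor) entered the fit, where they bear on the filter, the scaling and the estimate of spread, and are not compared here. Diet, L-NAME and heart failure cannot be told apart in any comparison with non_failing, and the labels used here give neither age nor batch. The labels give the mice as female and the methods of the study as male. Ddx3y, Eif2s3y, Kdm5d and Uty, which lie on the Y chromosome, were counted in all 27 libraries of these 3 groups (Uty, the lowest, at 5.92 to 11.4 CPM, counts per 1000000 counts), so the sex in the labels goes against the data.

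HDAC6 is a mainly cytoplasmic deacetylase whose best known substrate is α-tubulin, the subunit of microtubules. The adult heart burns mostly fatty acids, and the nuclear receptor PPARα raises the genes of fatty acid uptake and oxidation when fatty acids are plentiful. HFpEF is known for stiff ventricles, often with collagen and other matrix laid down between the myocytes, and for changes in how the myocytes use fuel.

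The 2 groups were sequenced to similar depth. The summed counts were 31.7 ± 5.93 M (M, 1000000 counts; SD, n = 11) with TYA-018 and 32.4 ± 6.78 M (SD, n = 8) in non_failing hearts, a difference of -0.668 M (exact two-sided permutation test, p = 0.816, adjusted over 2 measures 0.816). Mitochondrially encoded transcripts made up 33.3 ± 2.70% (SD, n = 11) and 32.6 ± 2.30% (SD, n = 8) of the counts (exact two-sided permutation test, p = 0.548, adjusted 0.816). The libraries were rich in heart muscle transcripts: 8 cardiomyocyte markers (Myh6, Tnnt2 and others) summed to between 39715 and 50665 CPM with TYA-018 and between 40665 and 54295 CPM in non_failing hearts. No marker that tells the left ventricle from the right was examined. The atrial light chain gene Myl7 reached at most 2.41 TPM (transcripts per 1000000, a level per length) with TYA-018 and 3.13 TPM in non_failing hearts. Genes were compared with edgeR's quasi-likelihood test and Benjamini-Hochberg adjustment over all genes tested, a gene being called at an adjusted p under 0.05. A value after ± beside a log2 fold change is an approximate standard error. It was derived from the fold change and its test statistic, not taken from the model. The confidence intervals given below are built on it, and it is poorly determined where the fold change is small. Fold changes are against non_failing unless vehicle is named. In bulk tissue, fewer cells of a type and less RNA per cell cannot be told apart.

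Hepatocyte genes were set aside. A list of 50 liver genes (Alb, Apoa1, Mup genes and others) summed to 82.8, 186 and 901 CPM (lowest, median, highest) in non_failing hearts, to 30.6, 45.1 and 5024 CPM with vehicle and to 14.2, 33.7 and 42.5 CPM with TYA-018. Every non_failing library held more of these transcripts than any TYA-018 library, and 1 vehicle library (V2523) held more than any other library of the 3 groups. Alb, the main protein of blood plasma, ranged from 13.3 to 235 CPM in non_failing hearts and from 0.109 to 1.90 CPM with TYA-018. Of the 35 liver genes tested, 31 were called lower with TYA-018 than in non_failing hearts. Against vehicle 35 were called lower, but 4 without V2523, the other 7 vehicle libraries holding 30.6 to 117 CPM of the list. Without V2523, vehicle hearts were themselves lower than non_failing ones in 26 of the 35, with a list median of -3.30. Together with genes that went up and down with them from library to library, 97 genes were set aside. They stayed in the fit, and the part of these transcripts in other differences was not tested.

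**Figure D1:**
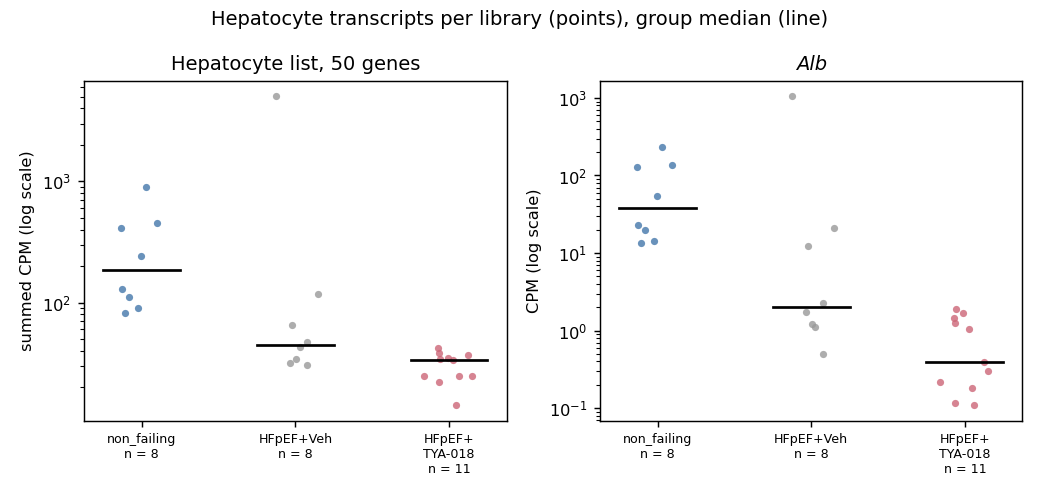
Hepatocyte transcripts in each library. Points are libraries of the non_failing (n = 8), HFpEF+Veh (n = 8) and HFpEF+TYA-018 (n = 11) groups, lines are group medians, and the log axes give the summed CPM of the liver list and the CPM of Alb. The TYA-018 libraries sit between 14.2 and 42.5 CPM for the list, under every non_failing library, and 1 vehicle library reaches 5024 CPM.

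Treated HFpEF hearts differed from non_failing hearts in 1017 of the 13765 genes tested, or 7.39%. Of these 551 (4.00%) were higher and 466 (3.39%) lower, and 953 (550 higher and 403 lower) were not hepatocyte genes. Most differences were small, 665 of the 1017 being under 1.5-fold and 180 over 2-fold. With vehicle, 433 genes (3.15%) were called against the same non_failing libraries, 243 (1.77%) higher and 190 (1.38%) lower. Between treated and vehicle HFpEF hearts 266 genes (1.93%) were called, 115 (0.835%) higher and 151 (1.10%) lower with TYA-018, and 198 of them (115 and 83) were not hepatocyte genes. With only the 2 groups compared in the fit, 58 were called between treated and vehicle hearts and 966 between treated and non_failing ones. Whether the counts with TYA-018 and with vehicle differ was not tested, and the treated group held more libraries. Counts of list members called are to be read against these shares. Each call was also sought with 1 library left out, in 19 fits without a non_failing or TYA-018 library and 8 without a vehicle one. Of the calls of list members outside the liver list, 63 of 101 with TYA-018 against non_failing, 39 of 70 with vehicle and 7 of 40 between treated and vehicle hearts held in all 27. Calls between treated and vehicle hearts given below without a count of fits, such as those of Nppb, Gdf15 and Ucp3, are to be read against these 7 of 40. The split of calls depended on the scaling. With libraries scaled by their size alone 904 genes were called, 28.5% of them higher, against 54.2% with TMM, the scaling used here, and limma on log2(TPM + 1) called 612, 43.0% of them higher.

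**Figure D2:**
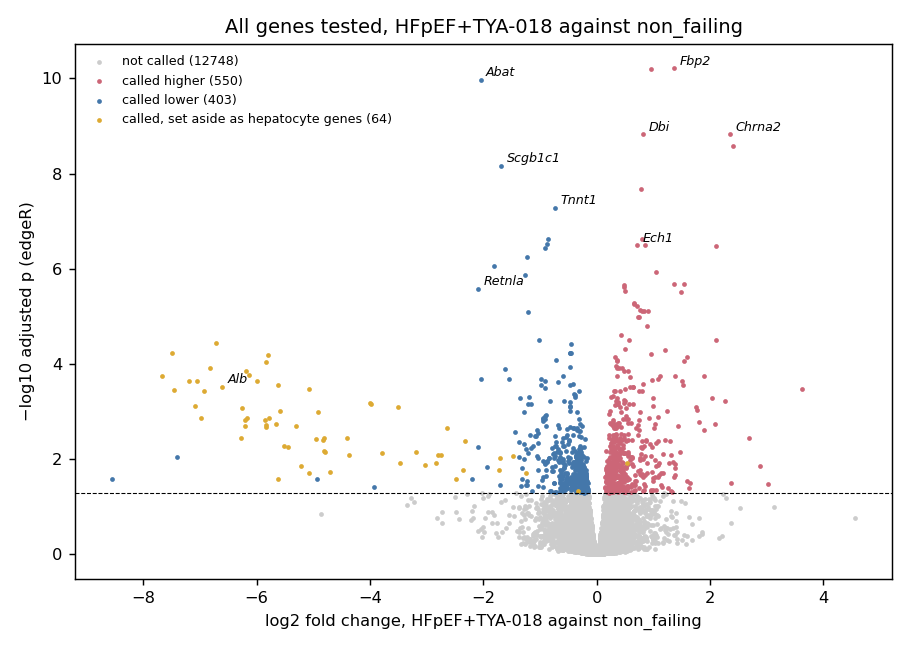
All genes tested in HFpEF+TYA-018 against non_failing hearts. The x axis is the log2 fold change and the y axis the −log10 adjusted p of edgeR, and each point is a gene. The 550 genes called higher and the 403 called lower are coloured apart from the 64 called hepatocyte genes.

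The genes changed with vehicle were sorted by their level with TYA-018. Of the 433, 223 were also called with TYA-018 in the same direction (125 higher and 98 lower), and 0 in the opposite one. At the healthy level were 42 (10 higher and 32 lower with vehicle), by which is meant that the whole 95% interval of the treated against non_failing difference lay within 0.32 of 0 on the log2 scale, and 8 of these were also among the 223. The other 176 met neither criterion. Both comparisons use the same 8 non_failing libraries, so these counts are a description. The interval rests on the derived standard error, which is poorly determined for small differences such as those at the healthy level. The genes that stayed higher had a median log2 fold change of 0.76 with TYA-018 and 0.75 with vehicle, and those that stayed lower one of -0.55 and -0.63, where the medians over all genes tested were 0.0052 and 0.0105. Of the 223, 58 were over 2-fold from the non_failing level with TYA-018. Lrrcc1, a centrosomal protein, was the 1 of the 223 also called between treated and vehicle hearts, at 0.41 ± 0.11 with TYA-018 and 0.88 ± 0.12 with vehicle.

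Among the genes that stayed changed, Fbp2, a muscle fructose bisphosphatase (chr13:62836877-62858422, GENCODE M21 on GRCm38.p6, as for the positions of all genes here), lay at 6.19, 10.5 and 12.9 TPM (lowest, median, highest) in non_failing hearts, at 19, 24.5 and 30.5 TPM with vehicle and at 21.2, 25.6 and 31.5 TPM with TYA-018. No treated library reached down into the non_failing range. It rose by 1.36 ± 0.11 on the log2 scale (edgeR adjusted p = 6.15e-11), higher in 11 of 11 treated libraries than the non_failing mean, and by 1.15 ± 0.11 with vehicle. Dbi, the acyl-CoA binding protein (chr1:120113280-120121078), lay at 143, 174 and 188 TPM in non_failing hearts and at 258, 284 and 322 TPM with TYA-018. These ranges did not overlap, with a rise of 0.82 ± 0.08 (edgeR adjusted p = 1.51e-09) beside 0.81 ± 0.08 with vehicle.

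PPARα binds DNA with its partner RXR at a repeat of the letters AGGTCA. Promoters of PPARα target and oxidation genes are shown because their called members, all but Acaa1b, were higher with TYA-018. Whether these genes vary together or share a regulator was not tested. Each window runs from 250 bases before the start of a transcript to 50 after it (RefSeq, build GRCm38.p6). Here and below a list gene was counted if any of its windows held a match, while the share of all windows counts each window singly. The 2 are therefore not the same measure. The direct repeat of AGGTCA with any 1 base between its units (the PPAR response element), on either strand, was in 0 windows of the 17 PPARα targets and 20 oxidation genes that had one, and in 0.0396% of the 32851 windows of all genes. A single AGGTCA unit was searched after the values were seen, in the 16 genes that stayed higher among the PPARα target and oxidation lists together with Fbp2, Ech1 and Pex11a. It was in 2 of the 11 that had a window, beside 16.3% of all windows. These were Plin2, which coats lipid droplets (chr4:86670010-86670309, minus strand, match 218 bases before the start), and Cpt1a, the liver-type carnitine transferase (chr19:3323051-3323350, plus strand, match 94 bases before the start). The capitals mark the unit, which reads AGGTCA on the other strand.

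Plin2: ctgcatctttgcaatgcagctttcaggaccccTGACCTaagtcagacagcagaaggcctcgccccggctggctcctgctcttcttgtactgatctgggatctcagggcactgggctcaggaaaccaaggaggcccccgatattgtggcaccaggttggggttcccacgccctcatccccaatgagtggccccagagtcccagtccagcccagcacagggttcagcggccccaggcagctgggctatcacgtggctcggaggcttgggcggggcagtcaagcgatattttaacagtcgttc

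Cpt1a: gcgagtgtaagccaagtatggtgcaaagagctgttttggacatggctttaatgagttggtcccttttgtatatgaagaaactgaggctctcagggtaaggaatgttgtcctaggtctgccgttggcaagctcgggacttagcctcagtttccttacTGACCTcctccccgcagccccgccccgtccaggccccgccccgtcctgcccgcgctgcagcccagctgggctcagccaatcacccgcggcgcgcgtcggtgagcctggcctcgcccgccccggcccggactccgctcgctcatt

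A match is a description of letters and not of a bound site, and windows without one say nothing of sequence further away.

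Of the 20 PPARα targets listed 17 were abundant enough to be tested, and of these 13 were called higher with TYA-018 and 1 lower, where 4.00% and 3.39% of all genes were, and 7 were called higher with vehicle. The 1 lower gene, Acaa1b, was among the genes set aside as hepatocyte genes, and with those left out of the fit 13 of 16 were higher and 0 lower. The median log2 fold change of the list was 0.65 with TYA-018 and 0.39 with vehicle. Of the 23 fatty acid oxidation genes 11 were called higher and 0 lower with TYA-018 (median 0.45), and 6 higher with vehicle (median 0.33). Between treated and vehicle hearts 0 oxidation genes and 1 PPARα target (Ucp3) were called. Scaled by library size alone, 13 PPARα targets and 7 oxidation genes were called higher, and with limma 11 and 9, where 258 of 13765 and 263 of 13909 genes were. With 1 surrogate variable 14 and 19 were, where 1107 of all 13765 genes were, and with 1 library left out 12 to 14 and 8 to 13.

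Among the PPARα targets, Angptl4, a secreted inhibitor of lipoprotein lipase, lay at 1.15, 1.94 and 3.79 TPM in non_failing hearts and at 4.39, 7.41 and 16.8 TPM with TYA-018. All 11 treated libraries were above all non_failing ones. It rose by 2.10 ± 0.32 (edgeR adjusted p = 3.16e-05), beside 1.70 ± 0.33 with vehicle. Acot2, a mitochondrial acyl-CoA thioesterase, lay at 12.2, 18.3 and 25.1 TPM and at 26.9, 37.3 and 46.5 TPM, again without overlap, and rose by 1.05 ± 0.13 (edgeR adjusted p = 1.18e-06). Its close paralog Acot1 rose by 1.44 ± 0.30, and reads shared by the pair may be split unevenly. Cidea, a lipid droplet protein, lay at 13.2, 14.7 and 18.7 TPM and at 24, 26.9 and 35.5 TPM without overlap, and rose by 0.96 ± 0.08 (edgeR adjusted p = 6.35e-11). Plin2 lay at 19.3, 21.3 and 23.4 TPM in non_failing hearts and at 20.4, 31 and 42.1 TPM with TYA-018, with 1 treated libraries inside the non_failing range, and rose by 0.65 ± 0.09. Pdk4, the kinase that restrains pyruvate dehydrogenase, rose by 0.92 ± 0.19, Pnpla2, the first triglyceride lipase of the droplet, by 0.49 ± 0.09, Plin5, a droplet coat protein of oxidative tissue, by 0.63 ± 0.16, the carnitine transporter Slc22a5 by 0.53 ± 0.15, the uncoupling protein gene Ucp2 by 0.68 ± 0.19 and Mlycd, which removes malonyl-CoA, by 0.48 ± 0.10. Acaa1b, a peroxisomal thiolase and 1 of the 97 genes set aside with the liver list, fell by 2.80 ± 0.69 (edgeR adjusted p = 0.00831) from a median of 0.666 TPM to one of 0.0837 TPM. Ucp3, another uncoupling protein, lay at 5.38, 9.72 and 24.9 TPM in non_failing hearts, at 8.24, 12.9 and 15.2 TPM with vehicle and at 7.9, 19.2 and 27.5 TPM with TYA-018. The ranges overlapped, with 9 of 11 treated libraries inside the non_failing one, and Ucp3 rose with TYA-018 by 0.83 ± 0.21 against non_failing (edgeR adjusted p = 0.00998) and by 0.79 against vehicle (adjusted p = 0.037).

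In the order of the oxidation pathway, the fatty acid carrier Fabp3 lay at 1771, 2580 and 3071 TPM in non_failing hearts and at 2771, 4066 and 4634 TPM with TYA-018. Of the treated libraries 1 lay inside the non_failing range, and it rose by 0.76 ± 0.11 (edgeR adjusted p = 7.25e-06). The outer membrane transferases Cpt1b and Cpt1a rose by 0.42 ± 0.08 and 0.33 ± 0.10, the carnitine carrier Slc25a20 by 0.74 ± 0.16 and the inner membrane transferase Cpt2 by 0.59 ± 0.10. In the mitochondrial matrix the dehydrogenases Acadvl and Acadl rose by 0.57 ± 0.11 and 0.47 ± 0.13, the trifunctional subunit Hadha by 0.53 ± 0.15 and the thiolase Acaa2 by 0.67 ± 0.09. Eci2 and Decr1, which handle unsaturated chains, rose by 0.50 ± 0.14 and 0.72 ± 0.10. The call of Cpt1a held in 10, that of Hadha in 15 and that of Eci2 in 18 of 19 fits, each without 1 of the libraries compared, and those of the other 8 in all 19. Fabp3, Cpt1a, Cpt1b, Cpt2, Acaa2 and Decr1 were also called with vehicle. Outside the list, Ech1, another enzyme of unsaturated chains, lay at 950, 1221 and 1435 TPM in non_failing hearts and at 1664, 2022 and 2318 TPM with TYA-018, without overlap, and rose by 0.72 ± 0.08 (edgeR adjusted p = 3.23e-07). Pex11a, which drives the division of peroxisomes, rose by 0.85 ± 0.10.

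**Figure D3:**
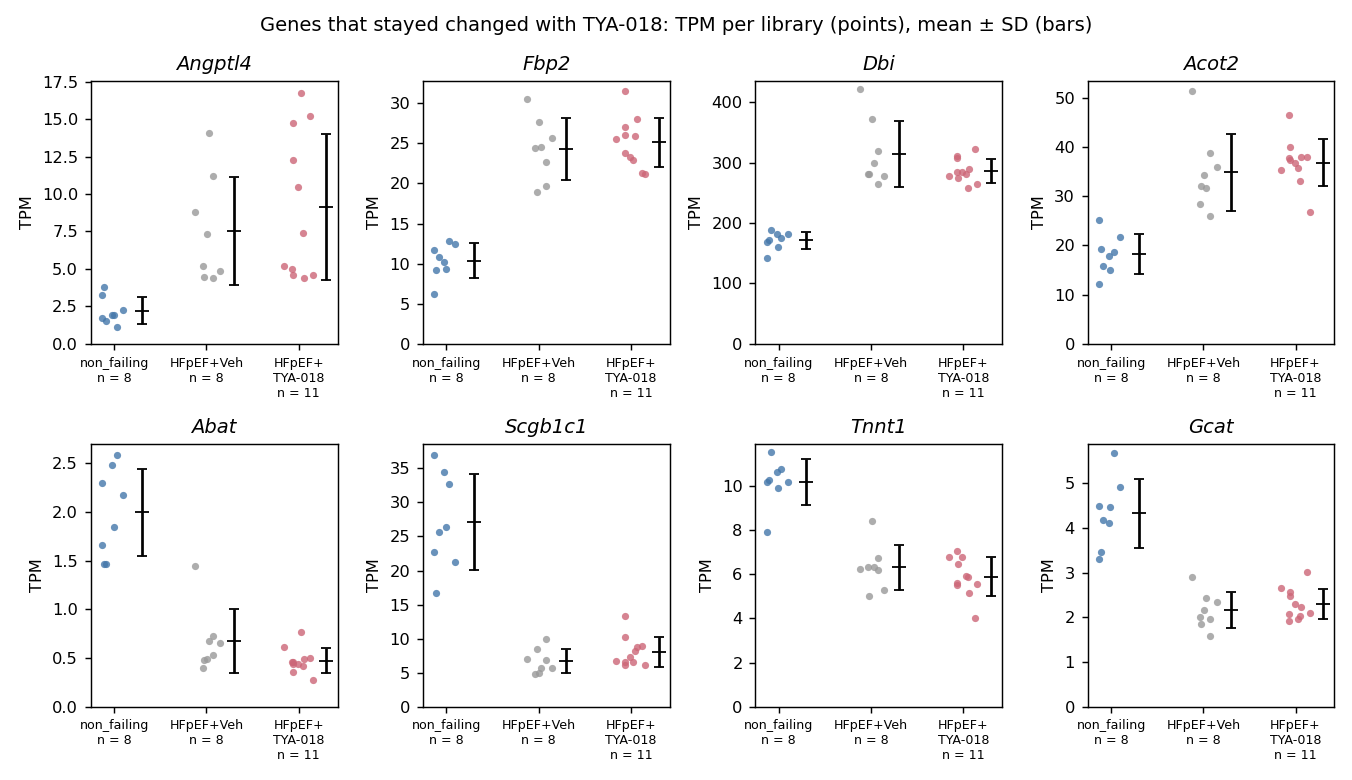
TPM of 8 genes that stayed changed, in each non_failing, HFpEF+Veh and HFpEF+TYA-018 library. Points are libraries and bars the mean ± SD, and each axis starts at 0. The treated libraries of Angptl4 (4.39 to 16.8 TPM), Fbp2, Dbi and Acot2 lie above every non_failing library, and those of Abat, Scgb1c1, Tnnt1 and Gcat below.

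Other genes that stayed higher lay outside the fuel lists. Chrna2, a subunit of the nicotinic acetylcholine receptor, lay at 0.0832, 0.184 and 0.341 TPM in non_failing hearts and at 0.469, 0.965 and 1.14 TPM with TYA-018, low levels that did not overlap, and rose by 2.35 ± 0.22 (edgeR adjusted p = 1.51e-09). Edn3, a peptide of the endothelin family, lay at 0.287, 0.354 and 0.684 TPM and at 0.84, 1.63 and 3.02 TPM, also without overlap, and rose by 2.11 ± 0.25 (edgeR adjusted p = 3.35e-07). Tesc, a calcium-binding protein, rose by 0.77 ± 0.08 and Plbd1, a phospholipase B-like protein, by 0.79 ± 0.09. Mthfd2, a mitochondrial folate enzyme, lay at 0.508, 0.584 and 0.851 TPM in non_failing hearts and at 1.15, 1.72 and 2.89 TPM with TYA-018. Its treated libraries all lay above the non_failing ones, with a rise of 1.54 ± 0.20 (edgeR adjusted p = 2.13e-06) beside 1.32 ± 0.21 with vehicle. Acta1, the skeletal α-actin that the stressed heart re-expresses, lay at 32.7, 63.9 and 85.1 TPM and at 88.8, 174 and 361 TPM. The lowest treated library lay just above the highest non_failing one, and Acta1 rose by 1.52 ± 0.27 (edgeR adjusted p = 0.000274) beside 1.48 ± 0.28 with vehicle.

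Among the genes that stayed lower, Abat, the transaminase that degrades GABA (chr16:8513429-8621568), lay at 1.47, 2.01 and 2.58 TPM in non_failing hearts, at 0.395, 0.59 and 1.45 TPM with vehicle and at 0.276, 0.457 and 0.763 TPM with TYA-018. The treated range lay wholly under the non_failing one. It fell by 2.05 ± 0.17 on the log2 scale (edgeR adjusted p = 1.06e-10), beside 1.65 ± 0.19 with vehicle. Scgb1c1, a secretoglobin, lay at 16.7, 26 and 37 TPM and at 6.07, 7.26 and 13.3 TPM and fell by 1.68 ± 0.17 (edgeR adjusted p = 6.8e-09). Tnnt1, the slow skeletal troponin T, lay at 7.91, 10.2 and 11.5 TPM and at 4.02, 5.89 and 7.05 TPM and fell by 0.74 ± 0.08 (edgeR adjusted p = 5.17e-08). In both genes all treated libraries lay under all non_failing libraries. Gcat, which turns a product of threonine into glycine and acetyl-CoA, lay at 3.3, 4.32 and 5.68 TPM and at 1.91, 2.23 and 3.01 TPM, without overlap, and fell by 0.89 ± 0.10 (edgeR adjusted p = 3.01e-07).

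Aqp1, the water channel of capillary endothelium, lay at 135, 177 and 246 TPM in non_failing hearts and at 50, 76.1 and 121 TPM with TYA-018, without overlap, and fell by 1.22 ± 0.15 (edgeR adjusted p = 5.58e-07). Scd1, the desaturase that makes oleic acid, lay at 3.86, 4.85 and 9.29 TPM and at 1.63, 2.25 and 2.9 TPM and fell by 1.21 ± 0.17, while its paralog Scd4 rose by 1.38 ± 0.24. Epn3, an endocytic adaptor, fell by 1.27 ± 0.16, Tnfrsf21, a death receptor, by 0.91 ± 0.11, and Net1, an exchange factor of RhoA, by 0.87 ± 0.10. Retnla, secreted by alternatively activated macrophages, lay at 2.96, 11.1 and 22.3 TPM and at 0.797, 2.32 and 4.44 TPM and fell by 2.09 ± 0.28. Its wide non_failing range held 5 of 11 treated libraries. With vehicle Aqp1 had fallen by 0.83 ± 0.16, Scd1 by 0.68 ± 0.18 and Retnla by 1.47 ± 0.30, the call of Scd1 holding in 16 of the 19 fits and 3 of the 8, and neither these nor Epn3, Tnfrsf21 or Net1 were called between treated and vehicle hearts.

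Of the genes at the healthy level, Slc2a4, the insulin-dependent glucose transporter GLUT4 (chr11:69942539-69948188), lay at 73.6, 93.1 and 113 TPM in non_failing hearts, at 62, 74.1 and 89.7 TPM with vehicle and at 72.7, 90.9 and 102 TPM with TYA-018. Inside the non_failing range lay 9 of 11 treated libraries, and the treated difference was 0.00 (95% interval -0.21 to 0.21). With vehicle Slc2a4 fell by 0.38 ± 0.11 (edgeR adjusted p = 0.0486), and treated hearts were 0.38 above vehicle (adjusted p = 0.0462). Slc2a4 was 1 of 9 genes at the healthy level that were also called between treated and vehicle hearts, all 9 lower with vehicle. That call against vehicle held in 5 (Hsd17b10), 7 (Slc2a4 and Pttg1), 10 (Gstk1), 12 (Fam126a) and 14 (Ndufa12) of 19 fits with 1 non_failing or treated library left out, and in all 19 for Mrps15, Nudt22 and Slc25a4. With 1 vehicle library left out it held in all 8 fits for Mrps15 and Nudt22, in 7 for Slc25a4, and in 1 to 3 for the other 6. The fall with vehicle against non_failing held in 6 (Slc2a4), 15 (Mrps15) and 16 (Pttg1 and Slc25a4) of the 19, and in all 19 for the other 5. In the 8 fits without a vehicle library it held 2 times for Slc2a4, 4 for Mrps15, 6 for Pttg1 and Slc25a4 and 7 for Nudt22.

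Among these 9, Slc25a4, the heart isoform of the ADP/ATP carrier, lay at 2185, 2631 and 3112 TPM in non_failing hearts, at 1916, 2257 and 2614 TPM with vehicle and at 2115, 2660 and 3099 TPM with TYA-018. The treated difference was 0.01 (95% interval -0.15 to 0.18), the fall with vehicle 0.33 ± 0.09, and treated hearts were 0.34 above vehicle (edgeR adjusted p = 0.0204). Ndufa12, an accessory subunit of complex I, lay at 439, 491 and 557 TPM in non_failing hearts, at 391, 412 and 463 TPM with vehicle and at 390, 465 and 492 TPM with TYA-018. It stood at -0.06 (95% interval -0.21 to 0.09) with TYA-018, fell by 0.33 ± 0.08 with vehicle and was 0.27 above vehicle (edgeR adjusted p = 0.0404). Mrps15, of the small mitochondrial ribosomal subunit, stood at 0.03 (95% interval -0.11 to 0.17), and Hsd17b10, a mitochondrial dehydrogenase of isoleucine breakdown, at -0.13 (95% interval -0.30 to 0.04). The other members were Gstk1 (-0.07), a mitochondrial and peroxisomal glutathione transferase, Nudt22 (0.04), a UDP-glucose hydrolase, Pttg1 (-0.02), the securin of chromosome separation, and Fam126a (-0.14), part of a complex that makes phosphoinositides at the plasma membrane.

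Of the genes at the healthy level that were called higher in HFpEF+Veh, Pdgfra, the growth factor receptor that marks fibroblasts, lay at 2.54, 3.5 and 3.82 TPM in non_failing hearts, at 3.66, 4.5 and 5.43 TPM with vehicle and at 3, 3.57 and 4.72 TPM with TYA-018. Of 11 treated libraries 7 lay in the non_failing range, and the treated difference was 0.16 (95% interval 0.01 to 0.31) beside 0.33 ± 0.08 with vehicle. Lrp1, an endocytic receptor, stood at 0.13 (95% interval -0.04 to 0.30) beside 0.38 ± 0.09 with vehicle, and Entpd2, which splits extracellular ATP, at 0.09 (95% interval -0.08 to 0.27) beside 0.35 ± 0.09. None of the 10 raised genes at the healthy level was called between treated and vehicle hearts. Pi4kb, a lipid kinase, Anp32b, a nuclear chaperone, and Smg5, of nonsense-mediated decay, were still called against non_failing at 0.15, 0.18 and 0.19, calls that held in 8, 16 and 5 of 19 fits with 1 library left out. Gnl2, of ribosome assembly, was still called at -0.18. Among the lowered genes not called against vehicle, the cardiac troponin I gene Tnni3 lay at 4015, 4961 and 6022 TPM in non_failing and at 3605, 4443 and 5178 TPM in treated hearts and stood at -0.13 (95% interval -0.28 to 0.03). Rbpms2, an RNA-binding protein, stood at -0.09, Aldh5a1, which oxidises a product of GABA, at -0.14 and Pbxip1 at -0.15.

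Some genes differed from both non_failing and vehicle hearts in 1 direction without being called with vehicle. There were 103, of which 46 were not hepatocyte genes (34 higher and 12 lower with TYA-018). The 103 became 5 with limma, 478 with 1 surrogate variable, 55 without vehicle V2523 and 30 with hepatocyte genes left out of the fit. Zdhhc14, a palmitoyl transferase (chr17:5492557-5753811), lay at 1.27, 2 and 2.42 TPM in non_failing hearts, at 1.91, 2.49 and 3.08 TPM with vehicle and at 2.62, 3 and 4.19 TPM with TYA-018. Treated and non_failing ranges were separate. It rose by 0.75 ± 0.11 (edgeR adjusted p = 1.05e-05) and by 0.48 against vehicle (adjusted p = 0.00935). Fgf9, a fibroblast growth factor, lay at 1.34, 1.97 and 2.39 TPM, at 1.39, 2.36 and 2.88 TPM and at 2.26, 3.27 and 3.92 TPM in the same order of groups. Of the treated libraries 1 lay inside the non_failing range, and Fgf9 rose by 0.81 ± 0.14 (edgeR adjusted p = 0.000259) and by 0.68 against vehicle (adjusted p = 0.00511). Slc46a3, a lysosomal transporter, lay at 4, 5.49 and 7.32 TPM in non_failing and at 5.34, 8.78 and 11.2 TPM in treated hearts, 4 of which were inside the non_failing range, and rose by 0.61 ± 0.13 and by 0.76 against vehicle (edgeR adjusted p = 0.000522). Smaller rises were those of Lmf1 (0.42 ± 0.06), which folds lipases, Ap5s1 (0.33 ± 0.05), of an endosomal adaptor, Rab3ip (0.43 ± 0.08), an exchange factor of small GTPases, and Rps2 (0.37 ± 0.07), a ribosomal protein whose reads may be shared with pseudogenes. The call against vehicle held in 16 (Ap5s1) and 13 (Rps2) of the 19 fits and in 5 and 2 of the 8, and in all 27 for Zdhhc14, Fgf9, Slc46a3, Lmf1 and Rab3ip.

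Of those that fell, Igfbp3, a binding protein of insulin-like growth factors (chr11:7206086-7213923), lay at 12.4, 14.9 and 18.4 TPM in non_failing hearts, at 7.38, 10 and 24 TPM with vehicle and at 5.41, 7.11 and 7.94 TPM with TYA-018. The treated libraries were close together and under every non_failing one. It fell by 1.01 ± 0.15 (edgeR adjusted p = 3.16e-05) and by 0.64 against vehicle (adjusted p = 0.0199). Vash1, which helps to remove the last tyrosine of α-tubulin and limits vessel growth, lay at 0.976, 1.51 and 2.09 TPM in non_failing and at 0.358, 0.744 and 1.18 TPM in treated hearts, 2 of which were inside the non_failing range, and fell by 0.95 ± 0.19 and by 0.81 against vehicle (edgeR adjusted p = 0.0206). Xrn1, an exonuclease of mRNA, fell by 0.32 ± 0.07, Plxnd1, a semaphorin receptor, by 0.44 ± 0.11, and Efr3b, which anchors a lipid kinase, by 0.89 ± 0.23. Their calls against vehicle held in 10, 17 and 16 of the 19 fits and in 2, 6 and 4 of the 8, and those of Igfbp3 and Vash1 in all 19 and in 7 of the 8. In 1 of these 8 fits without a vehicle library Igfbp3 was also called with vehicle against non_failing. Vehicle library V2530 held the Igfbp3 value of 24 TPM, and the other vehicle libraries lay at 7.38 to 14.6 TPM. Nckap5 fell by 0.65 ± 0.19, a call lost when the non_failing library V2502, V2503, V2509 or V2510 was left out (-0.62, -0.65, -0.64 and -0.52), and its call against vehicle held in 13 of the 19 and 4 of the 8.

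The mRNA of the drug's target was not called different. Hdac6 (chrX:7930120-7947889) lay at 2.73, 3.45 and 3.96 TPM in non_failing hearts, at 3.54, 4.41 and 5.18 TPM with vehicle and at 2.9, 3.82 and 5.25 TPM with TYA-018. The ranges overlapped, and the treated difference was 0.21 ± 0.11 (95% interval 0.00 to 0.43, edgeR adjusted p = 0.237). None of the 13 deacetylase and tubulin acetylation genes tested was called in any of the 3 comparisons, among them Sirt2 (0.02 ± 0.06), another tubulin deacetylase, and Atat1 (0.02 ± 0.11), the tubulin acetyl transferase. Of 13 tubulins 2 were called higher and 1 lower, beside 4.00% and 3.39% of all genes. Tubb4b lay at 93.1, 106 and 123 TPM in non_failing hearts, at 86.1, 103 and 127 TPM with vehicle and at 112, 120 and 173 TPM with TYA-018. It rose by 0.30 ± 0.08 (edgeR adjusted p = 0.0197) and by 0.46 against vehicle (adjusted p = 0.0012), with 6 of 11 treated libraries inside the non_failing range. Tubb3 rose by 0.63 ± 0.19, held in 8 of 19 fits with 1 library left out, and Tubb2b fell by 0.58 ± 0.15. The calls of Tubb4b and Tubb2b against non_failing were each lost in at least 1 such fit. Scaled by library size alone, 0 tubulins were called higher and 2 lower, where 258 and 646 of all 13765 genes were. Tuba4a (0.03), Tuba8 (0.15) and Tubg1 (0.10) were not called against non_failing but were higher than with vehicle, by 0.59, 0.47 and 0.23.

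Of 16 natriuretic peptide and stress genes, 3 were called higher with vehicle (Acta1, Abra and Rcan1) and 1 with TYA-018 (Acta1), beside 1.77% and 4.00% of all genes, with list medians of 0.48 and 0.19. With 1 surrogate variable 4 of the 16 were called higher with TYA-018, where 1107 of all 13765 genes were. Nppb, the B-type natriuretic peptide, lay at 154, 270 and 386 TPM in non_failing hearts, at 325, 404 and 609 TPM with vehicle and at 93.4, 227 and 367 TPM with TYA-018. The non_failing range held 9 of 11 treated libraries. The treated difference was -0.28 ± 0.22 (edgeR adjusted p = 0.491), and treated hearts fell by 0.86 against vehicle (adjusted p = 0.03), although vehicle was not called against non_failing (0.58 ± 0.24). Abra, an activator of actin signalling, stood at 0.37 ± 0.22 with TYA-018 and 1.06 ± 0.23 with vehicle, and Rcan1, the feedback inhibitor of calcineurin, at 0.19 ± 0.14 and 0.54 ± 0.15. The 95% intervals of Nppb (-0.73 to 0.17), Abra (-0.07 to 0.81) and Rcan1 (-0.09 to 0.46) with TYA-018 were too wide to place them at the healthy level. Nppa (-0.30 ± 0.35), Myh7 (0.31 ± 0.20) and Ankrd1 (-0.11 ± 0.21) were not called in either comparison with non_failing.

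Of 17 sarcomere genes 6 were called lower with vehicle and 3 with TYA-018, beside 1.38% and 3.39% of all genes. Myl3, the essential light chain of the ventricle, lay at 4194, 4931 and 5392 TPM in non_failing hearts and at 2873, 3748 and 4119 TPM with TYA-018, without overlap, and fell by 0.31 ± 0.08 (edgeR adjusted p = 0.00814). The M-band protein gene Myom2 fell by 0.59 ± 0.15 beside 0.59 ± 0.16 with vehicle, and the third was Tnnt1. Tnnt2, Tnni3 and Myl2 had fallen with vehicle by 0.43, 0.34 and 0.37 and stood at -0.23, -0.13 and -0.20 with TYA-018, not called. Scaled by library size alone or with limma, 5 of the 17 were called lower, where 646 of 13765 and 349 of 13909 genes were. Camk2d, the main CaM kinase of the heart, fell by 0.33 ± 0.08 with TYA-018, while Trdn, which anchors the calcium release channel, fell by 0.46 ± 0.12 with vehicle and stood at -0.07 with TYA-018 (95% interval -0.30 to 0.15). Of 16 potassium and sodium channel genes 1 was called higher with TYA-018, a share of 6.25% that is near the 4.00% of all genes. It was Scn4b, a sodium channel subunit (1.07 ± 0.28). With vehicle 1 was called lower, beside 1.38% of all genes: Kcnj2, the inward rectifier, fell by 0.63 ± 0.16 and stood at -0.11 with TYA-018.

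**Figure D4:**
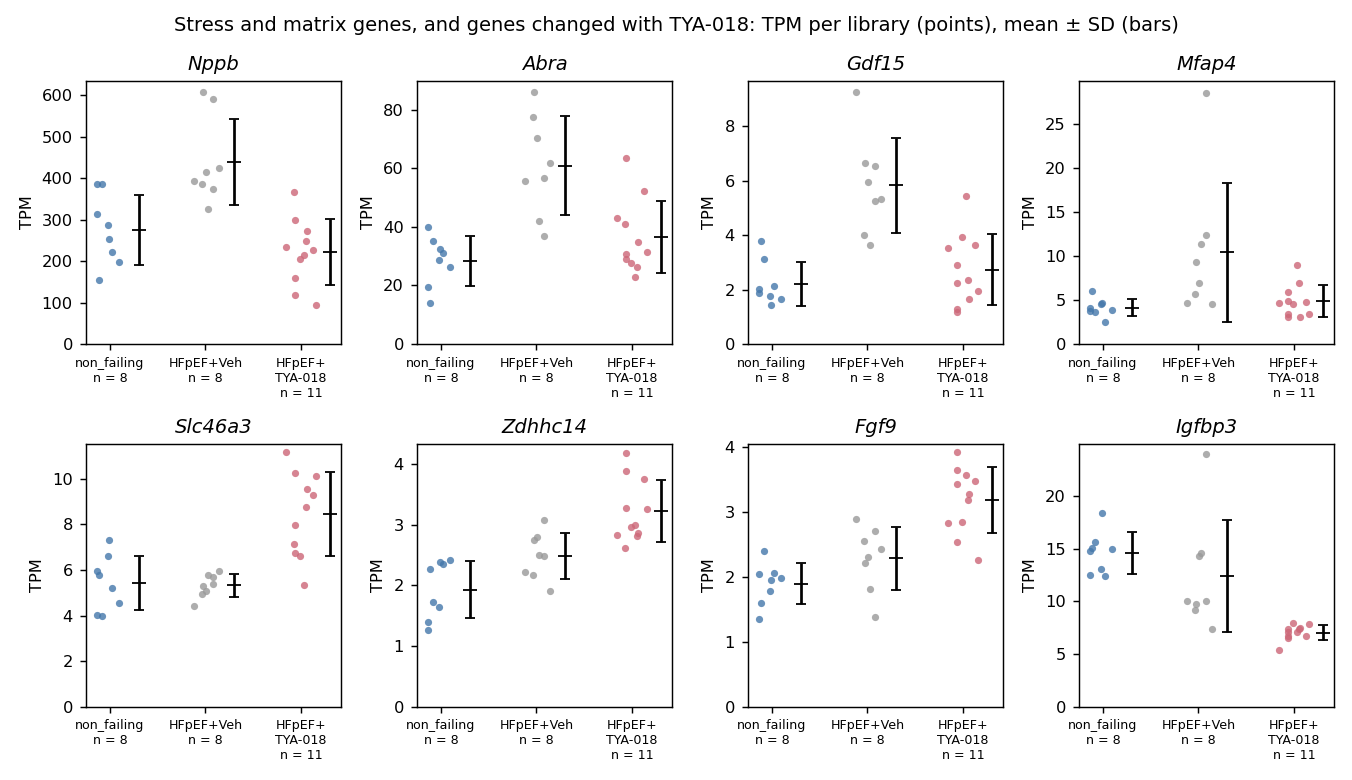
TPM of 8 stress, matrix and drug-changed genes in each non_failing, HFpEF+Veh and HFpEF+TYA-018 library. Points are libraries and bars the mean ± SD, and each axis starts at 0. Treated libraries of Nppb, Abra, Gdf15 and Mfap4 overlap with the non_failing range, while those of Zdhhc14 (2.62 to 4.19 TPM) lie above it and those of Igfbp3 (5.41 to 7.94 TPM) below it.

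With all 4 groups and all their libraries in the edgeR fit, none of the 26 interstitial matrix genes was called with TYA-018 (6 had an unadjusted p under 0.05). With vehicle 7 were called higher, where the shares of all genes were 4.00% and 1.77%. The list median was 0.07 with TYA-018 and 0.35 with vehicle, but 0 members were called between treated and vehicle hearts, where 25 of the 26 had a negative difference (median -0.36) and 16 an unadjusted p under 0.05, as did 2404 of all 13765 genes. With DESeq2, with 1 surrogate variable and with only the 2 groups in the edgeR fit 1 member each was called higher with TYA-018, and with limma 0. In edgeR fits with 1 library left out at most 1 was. Postn, the periostin of activated fibroblasts, lay at 6.76, 10.5 and 14.5 TPM in non_failing hearts, at 11.3, 18.8 and 44.1 TPM with vehicle and at 6.6, 15.3 and 28.3 TPM with TYA-018. The treated libraries ran from the bottom of the non_failing range to beyond its top, and the treated difference was 0.60 ± 0.23 (95% interval 0.14 to 1.05, edgeR adjusted p = 0.101) beside 1.03 ± 0.24 with vehicle. The other 6 called with vehicle stood with TYA-018 at 0.26 ± 0.28 (Mfap4, a microfibril protein), 0.90 ± 0.34 (Cilp, a matrix protein of fibrotic hearts), 0.81 ± 0.32 (Ltbp2, which binds fibrillin), 0.59 ± 0.47 (Comp, which binds collagen), 0.46 ± 0.16 (Col8a1) and 0.26 ± 0.11 (Col6a3), not called. None of the 7 met the criterion for the healthy level. The fibrillar collagens Col1a1 (-0.09 ± 0.17), Col1a2 (0.10 ± 0.10) and Col3a1 (-0.28 ± 0.17) were called in neither comparison with non_failing.

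Of 8 small proteoglycans 2 were called higher with TYA-018 and 3 with vehicle, beside 4.00% and 1.77% of all genes. Bgn, biglycan, lay at 50.9, 59.3 and 75.7 TPM in non_failing hearts and at 61, 74.1 and 108 TPM with TYA-018. Inside the non_failing range lay 6 of 11 treated libraries, and Bgn rose by 0.42 ± 0.12 (edgeR adjusted p = 0.0221). Lum, lumican, rose by 0.54 ± 0.16 beside 0.86 ± 0.17 with vehicle, and with library size alone as the scaling 0 proteoglycans were called with TYA-018. In at least 1 fit with 1 library left out 0 were called higher. Timp1, an inhibitor of matrix proteases, lay at 0.847, 1.38 and 1.98 TPM in non_failing and at 1.53, 2.66 and 5.86 TPM in treated hearts and rose by 1.17 ± 0.32 (edgeR adjusted p = 0.0199). Mmp2, a gelatinase raised with vehicle (0.43 ± 0.10), stood at 0.18 ± 0.09 with TYA-018, and Mmp15, a membrane-bound protease, fell by 0.38 ± 0.11. The call of Timp1 was lost with limma, and that of Mmp15 in at least 1 fit with 1 library left out. The 8 fibroblast markers summed to 1078, 1421 and 1667 CPM in non_failing and to 920, 1454 and 1961 CPM in treated hearts, and 1 (Lum) was called. In the basement membrane Lama4, a laminin chain of vessels, fell by 0.23 ± 0.07, held in 7 of 19 fits with 1 library left out. Col15a1 and Col4a6 were lower than with vehicle by 0.53 and 0.82 and stood at -0.20 and -0.07 against non_failing, and the TGF-β receptor Tgfbr1 was lower than with vehicle by 0.40 (log2 fold change -0.40, edgeR adjusted p = 0.00727).

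In the respiratory chain, of 35 complex I genes 1 was called higher with TYA-018 (Ndufa3, 0.40 ± 0.12), of 40 genes of complexes II to V 2 (Atp5d, 0.31 ± 0.07, and Cycs, 0.27 ± 0.09) and of 13 mitochondrially encoded genes 0, beside 4.00% of all genes. The call of Ndufa3 held in 10, that of Cycs in 4 and that of Atp5d in 19 of 19 fits with 1 library left out. The list medians were 0.10, 0.11 and -0.01 with TYA-018 and -0.09, -0.09 and -0.15 with vehicle. Of 77 mitochondrial ribosomal proteins 8 were called higher with TYA-018 (median 0.11, with vehicle -0.10), and 12 were called higher than with vehicle, where 0.835% of all genes were. Mrps34 (0.37 ± 0.07) and Mrps26 (0.24 ± 0.06) kept their call in all 19 fits with 1 library left out. Scaled by library size alone, 0, 1 and 1 genes of complex I, complexes II to V and the mitochondrial ribosome were called higher, and with 1 surrogate variable 4, 7 and 18, where 258 and 1107 of all genes were. Of 77 cytosolic ribosomal proteins 76 had a positive difference, as did 7020 of all 13765 genes (51%), with a list median of 0.16, and 1 (Rps2) was called, beside 4.00% of all genes. None of 25 genes of the TCA cycle and pyruvate entry was called against non_failing by edgeR, limma or DESeq2 (1 had an unadjusted p under 0.05). With 1 surrogate variable 7 were called higher, where 1107 of all 13765 genes were.

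Of 20 genes of branched chain amino acid catabolism 5 were called lower with vehicle (median -0.42) and 2 with TYA-018 (median -0.18), beside 1.38% and 3.39% of all genes. Bckdhb, a subunit of the branched chain ketoacid dehydrogenase, lay at 39, 49.2 and 59.5 TPM in non_failing hearts, at 31.4, 35.6 and 40.7 TPM with vehicle and at 28.1, 38.8 and 43.7 TPM with TYA-018. Of 11 treated libraries 4 lay in the non_failing range, and Bckdhb fell by 0.34 ± 0.10 with TYA-018 (edgeR adjusted p = 0.0252) and by 0.61 ± 0.10 with vehicle. Acadsb, the dehydrogenase of the isoleucine branch, fell by 0.38 ± 0.10 beside 0.46 ± 0.11. Ppm1k, the phosphatase that activates the ketoacid dehydrogenase, and Ivd, of the leucine branch, had fallen with vehicle by 0.61 and 0.43 and stood at -0.33 and -0.24 with TYA-018, neither called nor at the healthy level. Oxct1, which lets the heart use ketone bodies, had fallen with vehicle by 0.54 and stood at -0.28 ± 0.14 with TYA-018. Of the 6 ketone body genes tested, 1 was called higher and 1 lower with vehicle, and 1 higher and 0 lower with TYA-018. Of all genes 1.77% and 1.38% were called higher and lower with vehicle, and 4.00% and 3.39% with TYA-018.

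In glucose uptake and glycolysis 4 of 24 genes were called lower and 2 higher with vehicle against non_failing, beside 1.38% and 1.77% of all genes. With TYA-018 4 were higher and 0 lower, beside 4.00% and 3.39%. The 4 were Fbp2, Pfkl (0.55 ± 0.09), the liver-type phosphofructokinase, Ldha (0.51 ± 0.12), a lactate dehydrogenase, and Pkm (0.24 ± 0.07), pyruvate kinase, the last held in 6 of 19 fits with 1 library left out. Slc2a12, another insulin-dependent transporter, lay at 0.46, 0.92 and 1.47 TPM in non_failing hearts, at 0.453, 0.512 and 0.789 TPM with vehicle and at 0.583, 0.815 and 1.01 TPM with TYA-018. The non_failing range held 11 of 11 treated libraries, and the treated difference was -0.24 ± 0.17 (95% interval -0.59 to 0.10) beside a fall of 0.87 ± 0.19 with vehicle. Eno3, muscle enolase, and Ldhb, the heart lactate dehydrogenase, stood at -0.10 and -0.22 with TYA-018, beside falls of 0.52 and 0.45 with vehicle. Aldoa and Gapdh were higher than with vehicle by 0.39 and 0.36 and not called against non_failing (0.26 and 0.13).

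In lipid synthesis, Srebf2, the main transcription factor of sterol synthesis, lay at 3.13, 3.75 and 4.63 TPM in non_failing hearts and at 2.27, 2.55 and 3.36 TPM with TYA-018. Of the treated libraries 1 lay inside the non_failing range, and Srebf2 fell by 0.46 ± 0.07 (edgeR adjusted p = 5.96e-05). It was the 1 gene called of 20 of sterol synthesis, a share of 5% beside 3.39% of all genes called lower. With library size alone as the scaling 4 were called lower, where 646 of all 13765 genes were. Of 15 fatty acid synthesis genes Scd1 and Fads2, a desaturase of polyunsaturated fats (-0.45 ± 0.13), fell and Scd4 rose, beside 3.39% and 4.00% of all genes. Igf1r, the receptor of insulin-like growth factor 1, lay at 1.49, 1.8 and 2.23 TPM and at 1.06, 1.31 and 1.48 TPM, without overlap, and fell by 0.46 ± 0.07 (edgeR adjusted p = 3.88e-05). It was with Igfbp3 1 of 2 called, both lower, among 19 insulin signalling genes, beside 3.39% of all genes.

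Of 17 heat shock genes, among them the mitochondrial chaperones Hspd1 and Hspe1, 3 were called lower with TYA-018 and 0 with vehicle, beside 3.39% and 1.38% of all genes, with a list median of -0.03. Dnajb1, a co-chaperone of Hsp70, lay at 6.46, 8.75 and 14.7 TPM in non_failing hearts and at 4.86, 5.58 and 9.81 TPM with TYA-018. Inside the non_failing range lay 3 of 11 treated libraries, and Dnajb1 fell by 0.59 ± 0.14 (edgeR adjusted p = 0.00517). Dnaja1, another co-chaperone, fell by 0.48 ± 0.12, and Hspa1a, an inducible Hsp70 whose reads may be shared with a near-identical copy, by 0.95 ± 0.27. The letters of a heat shock element, searched on both strands, were in windows of 3 of the 13 members that had one (Hspd1, Hspe1 and Hsph1), beside 0.603% of all windows, and none of the 3 was called. The windows of Hspd1 and Hspe1 overlap and hold the same matches. Of 19 unfolded protein response genes 4 fell with TYA-018 and 3 with vehicle, beside 3.39% and 1.38% of all genes. They were Manf (-0.47 ± 0.10), a secreted protein of the endoplasmic reticulum, Sdf2l1 (-0.76 ± 0.19), Hspa5 (-0.35 ± 0.11), the main chaperone there, and Hyou1 (-0.32 ± 0.10), which was not called with vehicle. None was called between treated and vehicle hearts. Hspa5 was called in 5 and Hyou1 in 9 of 19 fits with 1 library left out.

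In the integrated stress response, Atf5, a transcription factor, rose by 0.31 ± 0.07 with TYA-018 and by 0.28 ± 0.07 with vehicle. Gdf15, a hormone released by stressed cells, lay at 1.43, 1.94 and 3.8 TPM in non_failing hearts, at 3.65, 5.63 and 9.26 TPM with vehicle and at 1.17, 2.35 and 5.43 TPM with TYA-018. Of 11 treated libraries 7 lay in the non_failing range. The treated difference was 0.36 ± 0.25 (95% interval -0.14 to 0.86, not called), vehicle was higher by 1.28 ± 0.27, and treated hearts fell by 0.92 against vehicle (edgeR adjusted p = 0.0355). The letters TGATGNAAN, of an amino acid response element, were in windows of 5 of the 13 members that had one (Chac1, Trib3, Asns, Nupr1 and Vldlr), beside 3.95% of all windows.

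Of 22 antioxidant genes 6 were called higher with TYA-018 and 0 with vehicle, where 4.00% and 1.77% of all genes were, with list medians of 0.16 and 0.11, and 0 were called between the HFpEF groups. They were Srxn1 (0.42 ± 0.08), which repairs peroxiredoxins, the superoxide dismutases Sod1 (0.33 ± 0.08) and Sod3 (0.55 ± 0.11), catalase Cat (0.46 ± 0.14), the peroxidase Gpx3 (0.40 ± 0.13) and the metallothionein Mt1 (0.63 ± 0.17). Srxn1 lay at 5.23, 5.56 and 6.19 TPM in non_failing hearts and at 5.71, 7.36 and 8.67 TPM with TYA-018, with 2 of 11 treated libraries inside the non_failing range. The calls of Gpx3 and Cat held in 7 and 6 of 19 fits with 1 library left out. Of 15 autophagy and lysosome genes 6 were higher: Map1lc3a (0.44 ± 0.07), the membrane tag of autophagosomes, also called with vehicle, the mitophagy receptor Bnip3 (0.46 ± 0.13), the lysosomal protease Ctsd (0.42 ± 0.10), the transcription factor Tfeb (0.19 ± 0.05), Becn1 (0.19 ± 0.06), which starts autophagosomes, and Slc46a3. With library size alone as the scaling 4 of the antioxidant and 3 of the autophagy genes were called higher, where 258 of all 13765 genes were. Of 38 proteasome genes 2 were higher, a share of 5.26% that is near the 4.00% of all genes (Psma4, 0.25 ± 0.07, and Psmc4, 0.15 ± 0.05), and 0 with that scaling. With 1 surrogate variable 7 of the 38 were called higher, where 1107 of all 13765 genes were.

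**Figure D5:**
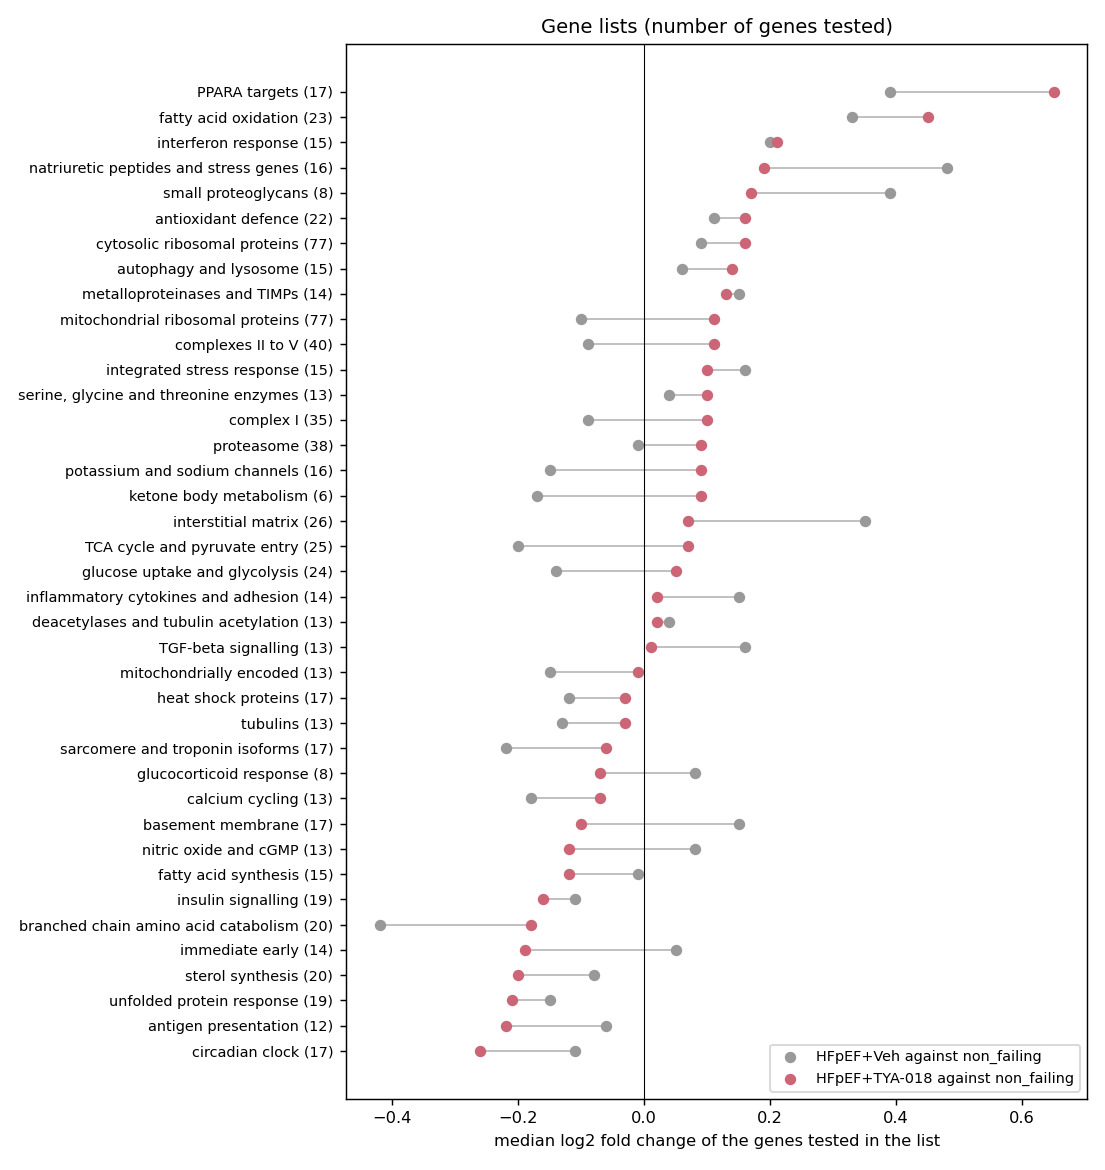
Median log2 fold change of each gene list in HFpEF+Veh and in HFpEF+TYA-018 hearts, both against the same non_failing libraries. PPARα targets (0.65) and fatty acid oxidation (0.45) lie above 0 with TYA-018, and the interstitial matrix list lies at 0.07 with TYA-018 and 0.35 with vehicle.

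In the nitric oxide, clock, antigen presentation and interferon lists 1 or 2 genes each were called, beside 7.39% of all genes in either direction. Of the 12 antigen presentation genes 3 were called lower with library size scaling, with DESeq2 and with only the 2 groups in the fit. With 1 surrogate variable 4 were, where 839 of all 13765 genes were called lower. Nos2, the inducible nitric oxide synthase, lay at 2.29, 3.06 and 3.44 TPM in non_failing hearts and at 1.22, 1.51 and 3.1 TPM with TYA-018. The non_failing range held 2 of 11 treated libraries, and Nos2 fell by 0.68 ± 0.16 (edgeR adjusted p = 0.00612), 1 of 13 nitric oxide and cGMP genes. In the circadian clock, where the time of sampling is not in the labels, the repressor Nr1d1 fell by 0.76 ± 0.23 and Nfil3, another repressor, rose by 0.63 ± 0.16, 2 of 17 genes. Nr1d1 ranged from 2.73 to 28.8 TPM in treated and from 12.3 to 29.7 TPM in non_failing libraries, and its call held in 13 of 19 fits with 1 library left out. The E-box CACGTG was in windows of 5 of the 15 clock genes that had one, beside 7.15% of all windows, and the D-box TTATGTAA in 1 (Per3), beside 0.938%. Cd74, which escorts MHC class II molecules, fell by 0.45 ± 0.14, held in 9 of those 19 fits, and Irf7, an interferon regulatory factor, rose by 0.53 ± 0.16, held in 10. No immediate early, glucocorticoid response or cytokine and adhesion gene was called in any of the 3 comparisons.

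Markers of other cell types were mostly not called, where 4.00% of all genes were called higher and 3.39% lower. None of the macrophage, T cell and B cell markers tested was called, and the macrophage list summed to 101, 153 and 178 CPM in non_failing and to 110, 152 and 270 CPM in treated hearts. Fabp4, a fatty acid carrier of capillaries, rose by 0.57 ± 0.16, 1 of 8 endothelial markers, which summed to 1501, 1799 and 2433 CPM and to 1873, 2317 and 2876 CPM. The call of Fabp4 was lost with limma and in at least 1 fit with 1 library left out. Of 8 pericyte and smooth muscle markers Acta2, smooth muscle actin, rose by 0.67 ± 0.21 and Rgs5, a pericyte regulator of G proteins, fell by 0.33 ± 0.09. The call of Acta2 was lost with library size scaling, with limma, without the filter and with only the 2 groups in the fit. Each of these calls was also lost in at least 1 fit with 1 library left out. Erythrocyte transcripts summed to 1852, 3237 and 5400 CPM in non_failing and to 2576, 6771 and 12964 CPM in treated hearts, with all 5 genes positive and 1 called (Hbb-bs, 1.15 ± 0.35, held in 9 of 19 fits with 1 library left out). All 5 were called higher with only the 2 groups in the fit and 2 with DESeq2 or 1 surrogate variable, and the part of blood in other differences was not tested. Of the white adipocyte markers only Plin4, which muscle also expresses, was abundant enough to be tested (0.55 ± 0.14). The white adipocyte list summed to 76.4, 92.5 and 165 CPM in non_failing and to 116, 142 and 243 CPM in treated hearts and the brown adipocyte list to 56.6, 64.4 and 74.6 and to 64.7, 85.1 and 113 CPM, and the part of adipocytes in the lipid genes was not tested. Of 3 brown adipocyte markers tested Cidea, also counted as a PPARα target, and Dio2 (1.14 ± 0.34), a thyroid hormone deiodinase, were called higher in both HFpEF groups. Of 6 Schwann cell and neuron markers 1 fell (Sox10, -0.62 ± 0.18), of 5 mesothelial markers 0 were called, and of 5 atrial markers Bmp10 was called higher, at a median of 0.0561 TPM. The skeletal muscle genes Tnnt3 and Atp2a1 reached 16.9 and 12.4 TPM in the vehicle group and at most 1.04 and 0.681 TPM in the 2 groups compared here.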

How the data were processed

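Left ventricular RNA of the mice was made into stranded polyA libraries. According to the study's methods the authors trimmed the reads with fastp and quantified them with salmon (version 1.6.0 in the submitters' processing notes) against GRCm38.p6 with GENCODE M25, while the notes name hg38 and the labels and methods differ in read layout. The deposited expected counts, which are estimated counts per gene, and the deposited TPM were taken as given. For this report the expected counts were rounded and tested with edgeR 4.0.16 (R 4.3.3), with filterByExpr, TMM scaling and 1 quasi-likelihood model of 4 mouse groups without covariates, and Benjamini-Hochberg adjustment over 13765 of 29564 genes (7693 had no count). Positions come from GENCODE M21, which held 27862 of the symbols, and 916 more were in RefSeq.

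Library totals were compared by exact permutation. The precision is that of 21.5 to 42.6 M counts in 11 TYA-018 and 27.2 to 48.3 M in 8 non_failing libraries. Each library is from 1 mouse, and the reads carry no molecular identifiers. Hepatocyte genes were a marker list and genes with a correlation of at least 0.7 to it after centring each group. Named genes were up to 10 called genes in each direction with the smallest p, up to 6 in each direction that stayed changed, were at the healthy level or changed only with TYA-018 (average log2 CPM at least 1), Hdac6, and called or contrasting members of the gene lists. Lrrcc1 and others named outside this rule, such as the genes at the healthy level that were also called against vehicle, were chosen after their values were seen. One gene that this rule names is not reported here. The members and lists were chosen with earlier results of these data known. Promoter windows of chromosome 18 were left out. Alternatives were RLE and library size scaling, no filter, DESeq2 1.42.0, limma 3.58.1 on log2(TPM + 1) of genes seen in 90% of libraries, 1 surrogate variable (sva 3.50.0), a length offset, fits of fewer groups, hepatocyte genes left out, and each library of the 3 groups left out (the vehicle libraries other than V2523 were added after the data were seen). On simulated counts of 13351 genes for this comparison, edgeR recovered 71% of genes changed 1.5-fold and 93% of those changed 2-fold, with 3.53% of its calls false. These counts were drawn independently per gene for the 2 groups alone, with no shift in liver or blood transcripts. The rates therefore do not apply to the calls of the 4-group fit reported here.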

Additional observations from a re-analysis of the deposited data

Results flagged for a closer look

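In 13 of the 92 sets of 8 libraries examined (1 gene or measure in 1 group), 1 library stood apart from the rest by Dixon's criterion, which chance alone exceeds in about 1 in 20 sets. The group of 11 treated libraries was not examined in this way. Of the 13, 3 vehicle values came from V2523, the library with the most hepatocyte transcripts (5024 CPM): Abat at 1.45 TPM (others 0.395 to 0.726), Tnfrsf21 at 5.51 TPM (2.87 to 4.01) and Scd1 at 7.52 TPM (1.98 to 4.11). The other vehicle libraries were V2527 with Ech1 at 2473 TPM (others 1651 to 1980), V2530 with Lmf1 at 9.43 TPM (11.9 to 13.4) and Igfbp3 at 24.0 TPM (7.38 to 14.6), V2521 with Pbxip1 at 16.9 TPM (13.5 to 15.0), and V2532 with a total of 57.7 M counts (25.6 to 34.0 M). In non_failing hearts V2508 stood apart in Edn3 at 0.684 TPM (others 0.287 to 0.454), Pi4kb at 8.21 TPM (6.25 to 7.18) and its total of 48.3 M counts (27.2 to 34.4 M), and V2507 in Tnnt1 at 7.91 TPM (9.91 to 11.5) and in its mitochondrially encoded share of 37.8% (30.3 to 32.8%).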

How the results depend on the processing

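No paired analysis was possible because the groups share no replicate numbers. For the log2 fold changes of the 44 genes named by rank or as the drug target, 375 of 396 values from alternatives with all libraries, and 1150 of 1188 with 1 library left out, kept their direction and their side of the threshold, and 0 changed direction. All but Hdac6 were picked by small p in these same libraries, so this agreement was largely set by the choice. Of list members outside the liver list, 63 of 101 calls with TYA-018 against non_failing held in all 27 fits. Among these 44, the lost calls were those of Pi4kb, Anp32b, Smg5, Gnl2 and Nckap5, and Pbxip1 was called with library size alone as the scaling (-0.21). Against non_failing, treated hearts had 612 calls with limma, 1946 with 1 surrogate variable and 736 to 1154 with 1 library left out, 569 genes being called in all 19 fits without a non_failing or TYA-018 library, and vehicle hearts had 696 with 1 surrogate variable and 289 to 620. Between treated and vehicle hearts there were 1096 calls with library size alone, 618 without the filter on low counts, 402 with DESeq2, 38 with limma, 1239 with 1 surrogate variable, 109 with hepatocyte genes left out of the fit, 58 with only these groups in it, and 167 (without vehicle V2530; 177 without TYA-018 V2547) to 393 with 1 library left out. The genes that stayed changed were 379 with 1 surrogate variable and 148 (without non_failing V2503) to 331 (without vehicle V2523, 210 of them shared with the 223) with 1 library left out, and 113 did so in all 19 of those fits. The genes at the healthy level were 27 without the filter, 69 with DESeq2, 79 with limma, 139 with 1 surrogate variable, 161 with an interval within 1.5-fold, and 18 (without non_failing V2504) to 77 (without vehicle V2523) with 1 library left out, with 23, 23, 27 and 22 without non_failing libraries V2501, V2502, V2503 and V2508 and 20, 24 and 23 without vehicle libraries V2527, V2529 and V2530. Those changed only with TYA-018 were 292 with library size alone, 210 without the filter, 168 with DESeq2, 5 with limma, 478 with 1 surrogate variable, 30 with hepatocyte genes left out, and 55 (without vehicle V2523) to 155 (without TYA-018 V2570). The difference in library total ranged from -1.75 to 1.61 M with 1 library left out and turned positive without non_failing V2508 (1.61 M) or TYA-018 V2552 (0.356 M). The difference in mitochondrially encoded share ranged from 0.322 to 1.47 percentage points with 1 library left out and was 0.0899 as a share of TPM. The cause of these shifts was not tested.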
